A study of Mus musculus with 4 samples.

Results

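Cyp4f18 and 7 genes that make or sense leukotrienes were followed through RNA sequencing of mouse regulatory T cells (Treg cells, which carry FOXP3 and hold other immune cells in check). The 8 genes are Cyp4f18, Alox5, Alox5ap, Lta4h, Ltc4s, Ltb4r1, Cysltr1 and Alox15, and each was found by its symbol among the 23284 symbols of the count tables. They were chosen by pathway and with their values in these libraries known, for tissue and for genotype. Their own levels are therefore given as a description with no test.

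Leukotrienes are lipid mediators made from arachidonic acid, which phospholipases A2 release from membranes. The enzyme 5-lipoxygenase (Alox5), helped by its membrane partner FLAP (Alox5ap), makes the unstable leukotriene A4. From it Lta4h makes leukotriene B4 (LTB4), a chemoattractant read by the receptor BLT1 (Ltb4r1). Ltc4s instead adds glutathione and starts the cysteinyl leukotrienes, read by Cysltr1. The mouse cytochrome P450 encoded by Cyp4f18 hydroxylates LTB4, a step of its breakdown, and Alox15 is a separate 12/15-lipoxygenase. Myeloid cells, mast cells among them, are the known main producers of leukotrienes, whereas T cells are known mainly to respond to them.

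All mice were C57BL/6 and 12 to 13 months old. Treg cells were sorted from eWAT, the epididymal fat pad, of PPARg-2KR mice, from eWAT of WT mice, and from spleen of PPARg-2KR mice and of WT mice, with 1 library for each of these 4 groups. PPARg-2KR is a form of the nuclear receptor PPARG in which a pair of lysines is replaced by arginines, and it is called 2KR below. No source used here gives the number of mice behind each library, the sort gate or the cells that carry the allele.

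Totals were 8315569 reads in 2KR eWAT, 11186660 in WT eWAT, 15993889 in 2KR spleen and 13250590 in WT spleen, and 3 reads corresponded to 0.196 to 0.312 CPM (reads scaled to an equal library total with TMM factors, which hold most genes level between libraries). Pparg stood at 64.1 CPM in 2KR eWAT, 129.5 CPM in WT eWAT, 2.88 CPM in 2KR spleen and 5.73 CPM in WT spleen, which does not check the genotype labels because the knock-in alters the protein. Foxp3 was abundant in each library, at 803 CPM in 2KR eWAT, 1160 CPM in WT eWAT, 1297 CPM in 2KR spleen and 1407 CPM in WT spleen. Markers of other cells were also present in the fat libraries. All 13 macrophage and monocyte markers found, all 10 dendritic cell markers and all 8 fibroblast and mesothelial markers were higher in both eWAT libraries than in both spleen libraries. The same order held for all 8 eosinophil markers found and all 5 type 2 innate lymphoid cell markers. It held for 7 of 9 mast cell, 6 of 9 neutrophil, 5 of 8 B cell and 5 of 6 adipocyte markers. Of the 10 T cell and Treg genes 1 had it. The share of all genes with that order was not counted. In bulk samples, fewer cells of a type and less RNA per cell cannot be told apart. With 1 library per group a difference has no replicate check. Each interval on a ratio reflects read counting alone, leaves out the spread between mice, and treats reads as if each were its own molecule.

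The sequences upstream of Cyp4f18 and Ltb4r1 are shown first, because these 2 genes had the lowest 2KR over WT ratios in eWAT among the 8. RefSeq promoters (250 bases before to 50 after the start, build GRCm38.p6, unlike the mm9 of the reads) matched 5 of the 8 symbols. Alox5ap, Cysltr1 and Alox15 had no entry. Capitals mark matches, on either strand, to any of a few short motifs. The GC box was searched as GGGCGG. The CCAAT box, bound by the factor NF-Y, was searched by the letters of its name. For the core that GATA factors bind the letters were GATAA. The nuclear receptor half-site was searched as AGGTCA, and the direct repeat bound by PPARG with RXR as a pair of these half-sites 1 base apart, so the repeat always overlaps the half-site. The AP-1 site, bound by FOS and JUN proteins, was searched as TGACTCA. For the TATA box the letters were TATAAA.
Cyp4f18, chr8:72009577-72009876, minus strand: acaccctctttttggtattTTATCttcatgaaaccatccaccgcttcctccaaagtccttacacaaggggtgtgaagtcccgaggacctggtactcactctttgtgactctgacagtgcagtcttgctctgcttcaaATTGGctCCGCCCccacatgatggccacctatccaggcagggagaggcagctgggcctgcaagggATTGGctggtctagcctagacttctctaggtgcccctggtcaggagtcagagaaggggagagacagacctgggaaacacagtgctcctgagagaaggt
Ltb4r1, chr14:55765712-55766011, plus strand: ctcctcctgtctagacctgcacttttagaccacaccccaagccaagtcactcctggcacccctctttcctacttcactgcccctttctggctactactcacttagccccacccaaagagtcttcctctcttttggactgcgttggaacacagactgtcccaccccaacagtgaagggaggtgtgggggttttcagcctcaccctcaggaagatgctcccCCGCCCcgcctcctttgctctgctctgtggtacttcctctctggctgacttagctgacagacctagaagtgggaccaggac
In the Cyp4f18 window there were 2 CCAAT boxes, 1 GC box and 1 GATA core, and in the Ltb4r1 window 1 GC box. Neither window held the half-site, its direct repeat, the AP-1 site or the TATA box as spelled here. Among 32851 promoters of the same length, 35.7% held the GC box, 37.4% the CCAAT box, 25.4% the GATA core, 16.3% the half-site, 0.0396% the direct repeat, 5.2% the AP-1 site and 13.6% the TATA box. Such matches describe letters in these windows and not bound sites.

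Cyp4f18 (mm9 chromosome 8, 74512381 to 74533525) was lower in 2KR than in WT eWAT and higher in 2KR than in WT spleen. It stood at 57.5 CPM in 2KR eWAT (553 reads) and 236 CPM in WT eWAT (2557 reads). In spleen it stood at 62.1 CPM in 2KR (948 reads) and 0.726 CPM in WT (9 reads). WT eWAT was the highest of the 4, WT spleen was the lowest, on 9 reads, and both 2KR libraries lay between them and close together.

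In eWAT the 2KR over WT log2 ratio of Cyp4f18 stood at −2.03 (95% exact binomial interval −2.17 to −1.90), or 4.10-fold lower. In spleen it was 6.12 (5.49 to 7.55), and without a prior count the reads gave an 85.5-fold higher level (44.9 to 187.6). The difference between the tissues, eWAT minus spleen, was −8.16 on the log2 scale and was not tested, since each group held 1 library. Seen by tissue, Cyp4f18 was higher in eWAT than in spleen by 8.05 on the log2 scale within WT (7.42 to 9.48). Within 2KR the same ratio was −0.11 (−0.26 to 0.04), an interval that includes 0. It became 0.17 when scaled to total counts and 0.38 when scaled to 10 T cell and Treg genes.

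A ratio of this size was rare in spleen. Of the 12307 genes that reached 5 CPM in some library, Cyp4f18 had the highest 2KR over WT ratio in spleen, and it was the 1 gene at 4 or more on the log2 scale. At −1 or lower in eWAT together with 1 or higher in spleen there were 7 genes, Cyp4f18 included. The reverse, 1 or higher in eWAT together with −1 or lower in spleen, held for 156 genes. Because Cyp4f18 was chosen with these values known, its place among all genes is a description.

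The deposited Cufflinks tables list 1 transcript for Cyp4f18, of 1702 bases. Its FPKM (reads scaled to library total and transcript length) was 42.9 in 2KR eWAT (Cufflinks interval 39.2 to 46.6), 151 in WT eWAT (145.1 to 157), 37.1 in 2KR spleen (34.6 to 39.5) and 0.439 in WT spleen (0.146 to 0.732). Mean read depth over the transcript, which is not scaled to the library, was 36.3 in 2KR eWAT, 175 in WT eWAT, 62.2 in 2KR spleen and 0.611 in WT spleen. FPKM and depth are not independent of the counts. WT eWAT was highest and WT spleen lowest on each scale, while 2KR eWAT lay above 2KR spleen in FPKM and below it in CPM.

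Genes beside Cyp4f18 on chromosome 8 had smaller ratios. Zfp961, a zinc finger gene 38.4 kb away (midpoint to midpoint), stood at 17.4 CPM in 2KR eWAT, 22.4 CPM in WT eWAT, 55 CPM in 2KR spleen and 38 CPM in WT spleen. Its 2KR over WT log2 ratio was −0.37 in eWAT and 0.53 in spleen. Zfp617, a further zinc finger gene, had ratios of 0.09 in eWAT and −0.33 in spleen. On the other side lie 2 olfactory receptor genes with few reads. Olfr372 had 8 reads in 2KR eWAT, 16 in WT eWAT, 9 in 2KR spleen and 6 in WT spleen. Olfr373 had 23 reads in 2KR eWAT, 12 in WT eWAT, 21 in 2KR spleen and 2 in WT spleen, so its spleen libraries differed in the same direction as those of Cyp4f18.

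Marker lists of cell types are given beside the Cyp4f18 levels as a description. The summed 2KR over WT log2 ratios of the 10 cell type marker lists ran between −1.07 (neutrophil) and 0.34 (type 2 innate lymphoid cell) in spleen. Single genes can differ from the sum of their list. In the type 2 innate lymphoid cell list, Il5 stood at 1.49 in spleen (15 reads in 2KR and 3 in WT). Calca of the same list stood at −1.78 (0 reads in 2KR and 5 in WT). In eWAT, 4 lists were lower in 2KR, as Cyp4f18 was. Over all 12307 genes at 5 CPM or more in some library, 5427 were higher in 2KR eWAT than in WT eWAT. Fibroblast and mesothelial markers summed to 230.1 CPM in 2KR eWAT and 544.8 CPM in WT eWAT, with 0 of 8 higher in 2KR. Type 2 innate lymphoid cell markers summed to 51 CPM in 2KR eWAT and 93.3 CPM in WT eWAT, with 0 of 5 higher in 2KR, and 9 of the 10 T cell genes were lower as well. The eosinophil sum was lower through Ccr3 alone, while the other 7 of its 8 genes were higher in 2KR eWAT. The part of these cells, or of cells outside the lists, in the Cyp4f18 levels was not tested.

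**Figure D1:**
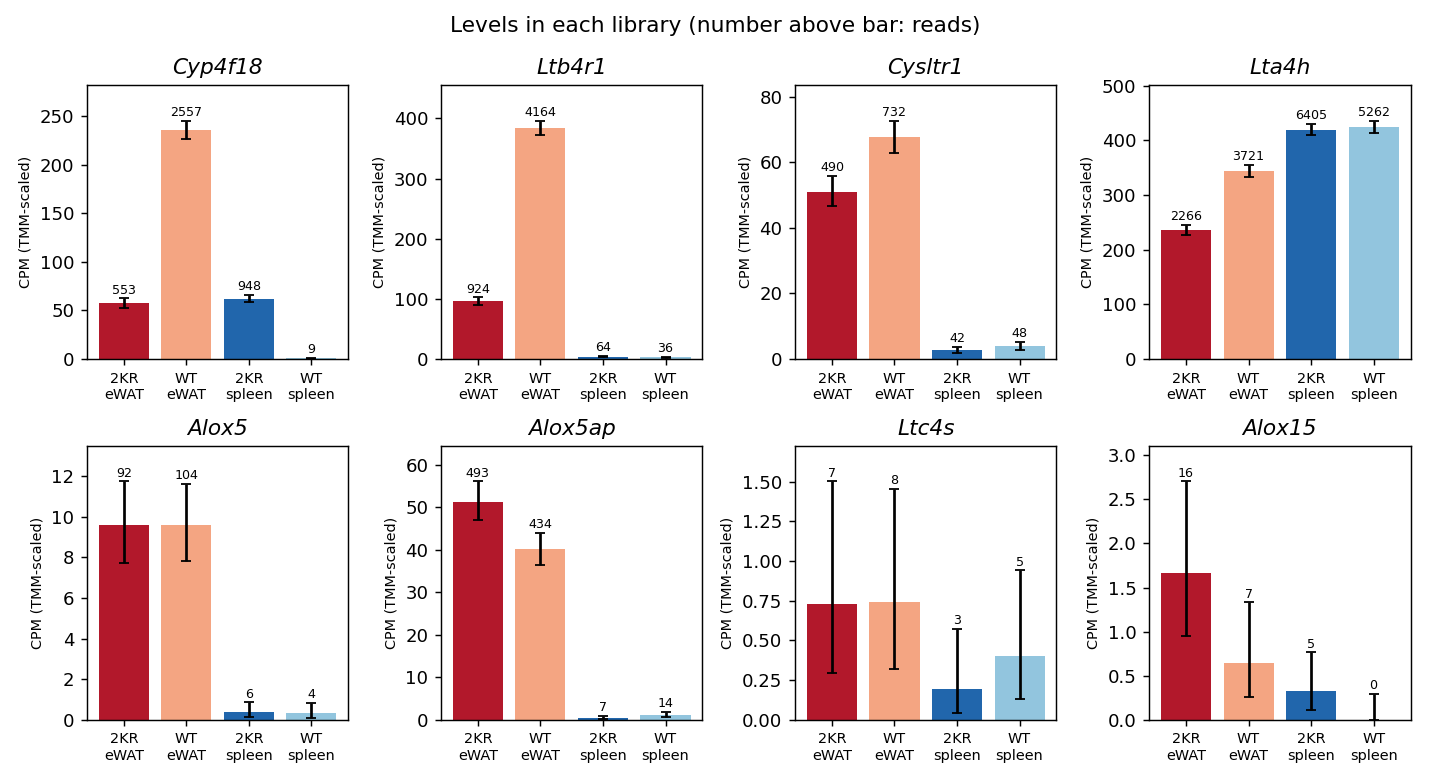
Level of each gene in the 4 libraries, in CPM scaled by TMM, with exact Poisson intervals of 95% that cover counting error only and the reads printed above each bar. Cyp4f18 is highest in WT eWAT and near 0 in WT spleen, Ltb4r1, Cysltr1, Alox5 and Alox5ap are high in both fat libraries, and Lta4h is highest in spleen.

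Among the receptors, Ltb4r1 (chromosome 14, 56384799 to 56387329) had 96.1 CPM in 2KR eWAT (924 reads) and 384 CPM in WT eWAT (4164 reads). In spleen it had 4.19 CPM in 2KR (64 reads) and 2.90 CPM in WT (36 reads). Both fat libraries were thus above both spleen libraries, and the 2KR fat library lay below the WT one. Its genotype log2 ratio was −2.00 in eWAT (−2.10 to −1.90) and 0.51 in spleen (−0.08 to 1.16), an interval that includes 0. Per length, Ltb4r1 had the highest FPKM of the 8 genes in WT eWAT, at 305, against 91.9 in 2KR eWAT.

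Scaling to the summed reads of the 10 T cell and Treg genes gave −1.60 for Ltb4r1 and −1.63 for Cyp4f18 in eWAT. Those 10 genes summed to 6865 CPM in 2KR eWAT, 9056 CPM in WT eWAT, 9626 CPM in 2KR spleen and 10817 CPM in WT spleen. Fibroblast and type 2 innate lymphoid cell sums were lower in 2KR eWAT too, as was the eosinophil gene Ccr3 but not the other 7 eosinophil markers, and their part in the Ltb4r1 level was not tested.

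Cysltr1 (chromosome X, 103771856 to 103798801) had 51 CPM in 2KR eWAT (490 reads) and 67.6 CPM in WT eWAT (732 reads). In spleen it had 2.75 CPM in 2KR (42 reads) and 3.87 CPM in WT (48 reads). The fat libraries were both far above the spleen libraries and were close to each other. Its 2KR over WT log2 ratio was −0.41 in eWAT (−0.57 to −0.24) and −0.47 in spleen (−1.13 to 0.13). In eWAT it moved to −0.01 when scaled to the 10 T cell and Treg genes. Its FPKM was 21.7 in 2KR eWAT, 23.8 in WT eWAT, 0.996 in 2KR spleen and 1.23 in WT spleen. The locus of Cysltr1 overlaps that of Gm5127, which had 111 reads in 2KR eWAT, 114 in WT eWAT, 18 in 2KR spleen and 21 in WT spleen, and the use of strand in counting is not given in the sources used here.

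The enzyme that makes LTB4, Lta4h (chromosome 10, 92916141 to 92947641), was lower in fat than in spleen in CPM, by an amount that depended on the scaling. It stood at 236 CPM in 2KR eWAT (2266 reads), 343 CPM in WT eWAT (3721 reads), 419 CPM in 2KR spleen (6405 reads) and 424 CPM in WT spleen (5262 reads). Both fat libraries were below both spleen libraries, and the spleen libraries were close to each other. The 2KR over WT log2 ratio was −0.54 in eWAT (−0.62 to −0.47) and −0.02 in spleen (−0.07 to 0.04). In eWAT the ratio was −0.29 when scaled to total counts and −0.14 when scaled to the T cell and Treg genes. The eWAT over spleen log2 ratio of Lta4h was −0.83 within 2KR and −0.31 within WT. Medians over all genes were −0.26 within 2KR and −0.17 within WT. Scaled to the T cell and Treg genes, the Lta4h tissue ratio was −0.34 within 2KR and −0.05 within WT. Per length, Lta4h had the highest FPKM of the 8 genes in 2KR eWAT at 144, in 2KR spleen at 211 and in WT spleen at 209, while in WT eWAT, at 175, it came second to Ltb4r1.

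The upstream enzyme was scarce. Alox5 (chromosome 6, 116360089 to 116411196) had 9.57 CPM in 2KR eWAT (92 reads) and 9.60 CPM in WT eWAT (104 reads), against 0.393 CPM in 2KR spleen (6 reads) and 0.323 CPM in WT spleen (4 reads). The fat libraries did not overlap the spleen libraries, and the 2 fat values were nearly equal, with a 2KR over WT log2 ratio of −0.004 (−0.42 to 0.41). Its FPKM was 3.25 in 2KR eWAT and 2.97 in WT eWAT.

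Alox5ap (chromosome 5, 150076634 to 150099623) was higher than Alox5 per length, with an FPKM of 84.7 in 2KR eWAT and 53.4 in WT eWAT. In CPM it had 51.3 in 2KR eWAT (493 reads) and 40.1 in WT eWAT (434 reads), against 0.458 in 2KR spleen (7 reads) and 1.13 in WT spleen (14 reads). In CPM it was the 1 gene of the 6 at 5 CPM or more whose level was higher in 2KR eWAT than in WT eWAT, with a log2 ratio of 0.36 (0.17 to 0.55). This ratio was 0.61 when scaled to total counts and 0.75 when scaled to the 10 T cell and Treg genes. Alox5, level in CPM, stood at 0.25 and 0.39 under the same settings, so being the 1 gene depends on the scaling. In spleen the Alox5ap ratio was −1.05 (−2.85 to 0.10).

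Myeloid markers differed in the same direction as Alox5ap between the fat libraries. The 13 macrophage and monocyte markers summed to 1898 CPM in 2KR eWAT, 1460 CPM in WT eWAT, 96.7 CPM in 2KR spleen and 142 CPM in WT spleen, and 12 of the 13 were higher in 2KR eWAT than in WT eWAT. Lyz2, the most abundant, stood at 1212 CPM in 2KR eWAT and 1015 CPM in WT eWAT. C1qa, C1qb and C1qc were nearly level, with 2KR over WT log2 ratios of 0.05, 0.04 and 0.03 in eWAT, against 1.44 for Cd163. Of all 12307 genes at 5 CPM or more in some library, 5427 were higher in 2KR eWAT. The 10 dendritic cell markers summed to 927 CPM in 2KR eWAT and 574 CPM in WT eWAT, against 9.50 CPM in 2KR spleen and 16.9 CPM in WT spleen, with 7 of 10 higher in 2KR eWAT. In both fat libraries 0 genes of either list were at 0 reads. The part of these cells in the Alox5 and Alox5ap levels was not tested.

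Mast cells, which also make leukotrienes, differed between the fat libraries as well. Their 9 markers summed to 101.1 CPM in 2KR eWAT and 27.7 CPM in WT eWAT, all 9 were higher in 2KR eWAT, and Mcpt4 had 102 reads in 2KR eWAT and 0 in the other 3 libraries. Neutrophil markers were low, with a sum over 9 genes of 14.7 CPM in 2KR eWAT, 13.4 CPM in WT eWAT, 2.42 CPM in 2KR spleen and 5.08 CPM in WT spleen. Of these 9, 7 were higher in 2KR eWAT, among them Mpo with 24 reads in 2KR eWAT and 15 in WT eWAT, and the exceptions were S100a8, with 1 read in 2KR eWAT and 12 in WT eWAT, and S100a9. The 8 eosinophil markers summed to 107.3 CPM in 2KR eWAT and 200.3 CPM in WT eWAT, of which the chemokine receptor gene Ccr3 alone made 85 CPM in 2KR eWAT and 185.6 CPM in WT eWAT. Gene by gene, 7 of these 8 were higher in 2KR eWAT, so the lower sum is that of Ccr3. Epx, the eosinophil peroxidase gene, had 5 reads in 2KR eWAT and 2 in WT eWAT. B cell markers summed to 169 CPM in 2KR eWAT and 96.9 CPM in WT eWAT, with 8 of 8 higher in 2KR eWAT. Adipocyte markers summed to 20.1 CPM in 2KR eWAT and 13.1 CPM in WT eWAT, of which Lep made 12.8 CPM and 8.12 CPM. Of the 6 adipocyte markers 4 were higher in 2KR eWAT, while Retn and Cfd were lower.

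**Figure D2:**
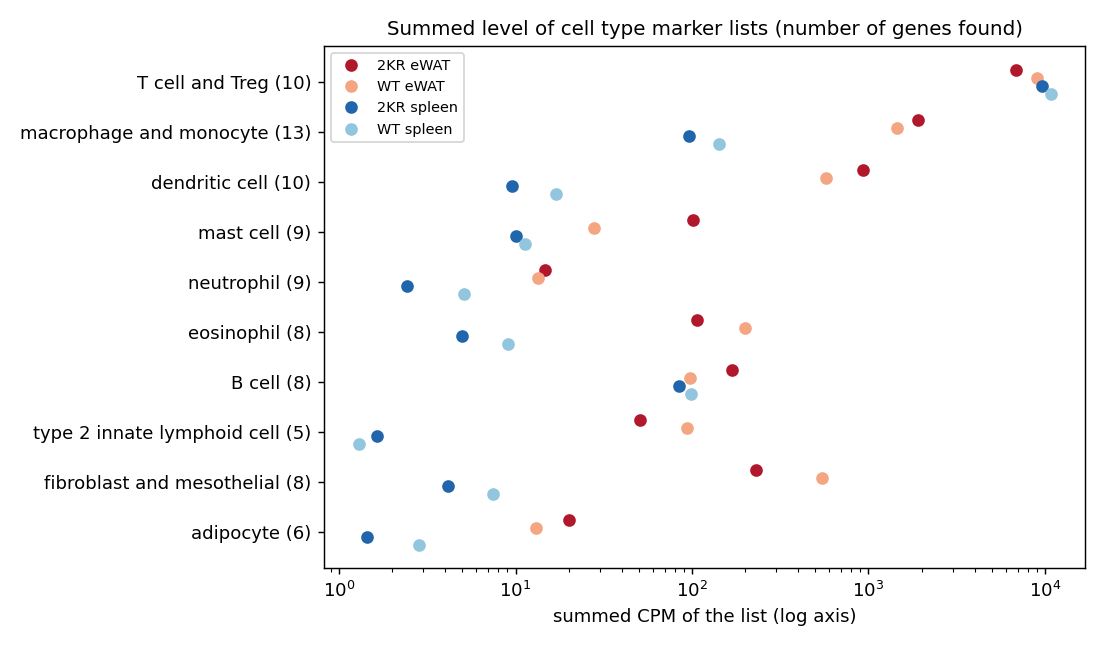
Summed CPM of each cell type marker list in the 4 libraries, on a log axis, with the number of genes found in parentheses. The T cell and Treg list has the highest sum in each library, and the macrophage, dendritic cell and mast cell sums are higher in 2KR eWAT than in WT eWAT.

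Ltc4s and Alox15 were barely detected. Ltc4s (chromosome 11, 50049974 to 50051973) had 7 reads in 2KR eWAT, 8 in WT eWAT, 3 in 2KR spleen and 5 in WT spleen, so its level was at most 0.738 CPM. Its 2KR over WT log2 ratio was −0.02 in eWAT (−1.72 to 1.64) and −0.65 in spleen (−3.72 to 1.32), and a difference was not detectable at this depth. Alox15 (chromosome 11, 70157649 to 70165533) had 16 reads in 2KR eWAT, 7 in WT eWAT, 5 in 2KR spleen and 0 in WT spleen. The eWAT log2 ratio was 1.17 (0.004 to 2.89) in counts, but its FPKM was 0.163 in 2KR eWAT and 0.158 in WT eWAT, a log2 ratio of 0.03 on FPKM + 0.1, so no genotype difference is read from it. In spleen 5 reads in 2KR against 0 in WT gave a counting interval with a lower limit of 0.74-fold, which includes no difference. Neither gene passed the expression filter of the test across all genes, which the other 6 members did.

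Counted over the members, 6 of 8 had both fat libraries above both spleen libraries (Alox5, Alox5ap, Ltc4s, Ltb4r1, Cysltr1 and Alox15), 1 had both below (Lta4h), and Cyp4f18 overlapped. Across all 16488 genes tested, 33.7% were higher and 23.2% lower in eWAT (edgeR adjusted p under 0.05). Those are shares of test calls, and the share of all genes whose libraries do not overlap was not counted. Ltc4s and Alox15, with few reads, did not pass the filter of that test. Since tissue levels were known when the members were chosen, nothing is read from the counts. Ratios within a tissue and within a genotype use the same 4 libraries and are not independent. At 5 CPM or more in some library were 6 members. Their 2KR over WT log2 ratio in eWAT was −1 or lower for 2 (Cyp4f18 and Ltb4r1), against 2.33% of all genes, and 1 or higher for 0, against 5.35%. In spleen it was 1 or higher for 1 (Cyp4f18), against 1.01%, and −1 or lower for 1 (Alox5ap, on 7 reads in 2KR and 14 in WT), against 5.71%. Their median ratio was −0.47 in eWAT, against −0.08 for all 12307 genes, and 0.09 in spleen, against −0.07.

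By tissue within a genotype, 4 of the 6 members were at a log2 ratio of 1 or higher within 2KR, against 23.1% of all genes, and 0 at −1 or lower, against 14.3%. Within WT these counts were 5, against 20.7%, and 0, against 11.9%. Cyp4f18 made the difference between 4 and 5. Ltb4r1 had an eWAT over spleen log2 ratio of 4.47 within 2KR and 6.97 within WT, while Cysltr1 had 4.13 within 2KR and 4.07 within WT. For Alox5 they were 4.12 within 2KR and 4.32 within WT, and for Alox5ap 6.36 within 2KR and 4.96 within WT.

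**Figure D3:**
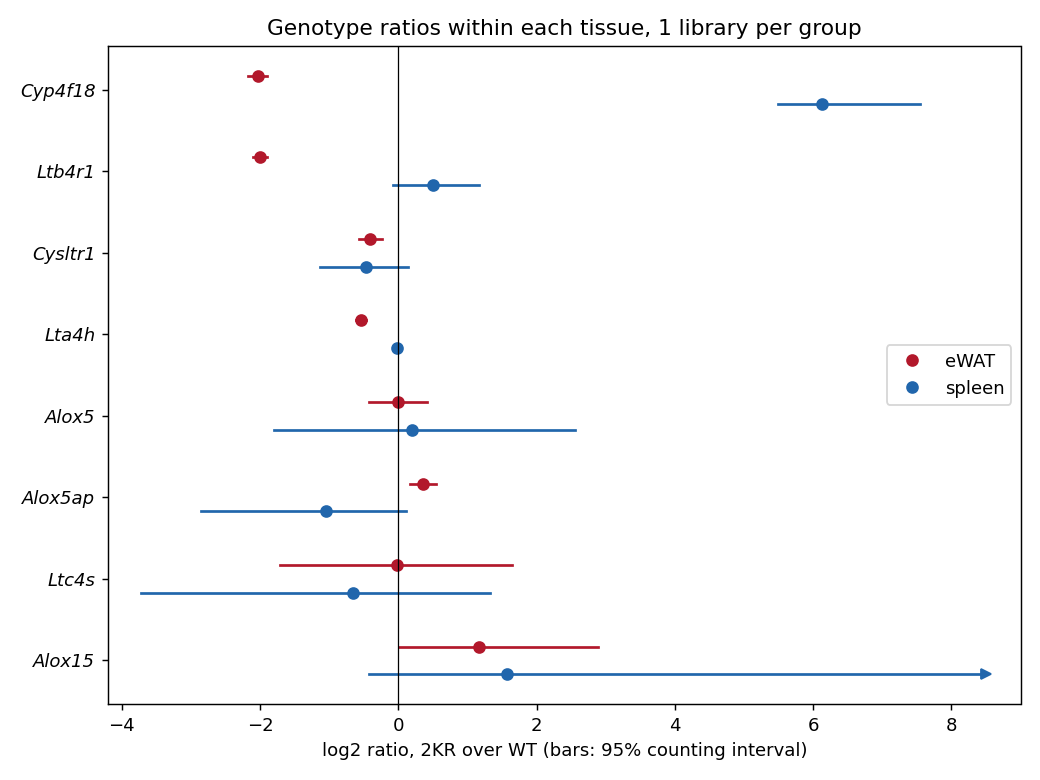
Log2 ratio of 2KR over WT for each gene, in eWAT (red, upper) and spleen (blue, lower), with exact binomial intervals of 95% on the reads (the arrow marks an interval with no upper bound). Cyp4f18 lies at −2.03 in eWAT and 6.12 in spleen, Ltb4r1 lies at −2.00 in eWAT, and the intervals of Alox5 and Ltc4s include 0 in both tissues.

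Profiles over the 4 libraries were compared by the root mean square difference of centred log2 CPM, with 7685 genes at a mean of 20 CPM or more searched. The members most like each other were Alox5 and Cysltr1, at 0.28. Cyp4f18 was at least 2.17 from every member with 100 reads or more, Ltb4r1 being the nearest. These distances rest on 4 libraries and carry no test.

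No gene searched had a profile close to that of Cyp4f18. The nearest was Il9r, a receptor for the cytokine IL-9, at 1.58, with 28.7 CPM in 2KR eWAT, 63.1 CPM in WT eWAT, 8.38 CPM in 2KR spleen and 2.18 CPM in WT spleen. It was followed by the gelatinase gene Mmp9 at 1.81, Myadm at 1.94, the shared cytokine receptor chain gene Csf2rb at 1.96 and Il1rl1, which encodes the IL-33 receptor, at 1.97. Each of these 5 had its lowest level in WT spleen, as Cyp4f18 did, but none had a 2KR spleen level as high as its 2KR eWAT level.

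Ltb4r1 had nearer neighbours. Anxa1, which encodes annexin A1, lay at 0.13, with 386.5 CPM in 2KR eWAT, 1531 CPM in WT eWAT, 14.4 CPM in 2KR spleen and 10 CPM in WT spleen. The AP-1 gene Fosb lay at 0.16, followed by the transporter gene Slco2b1 at 0.33, the chemokine receptor gene Ccr2 at 0.37 and the complement gene C3 at 0.39. Among the nearest to Cysltr1 were Mt1, Magi1, Crem and Pcyt1a (0.13 to 0.18), and among the nearest to Alox5 were App, Ctsh, Crem and Ifitm3 (0.21 to 0.24). For Alox5ap the nearest were Adamts1, Cd36, Dab2, Fn1 and Eps8 (0.11 to 0.29). Lta4h, whose levels spanned only 236 to 424 CPM, had Slc39a3, Adpgk, Snx3, Sept9 and Apbb1ip within 0.02.

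**Figure D4:**
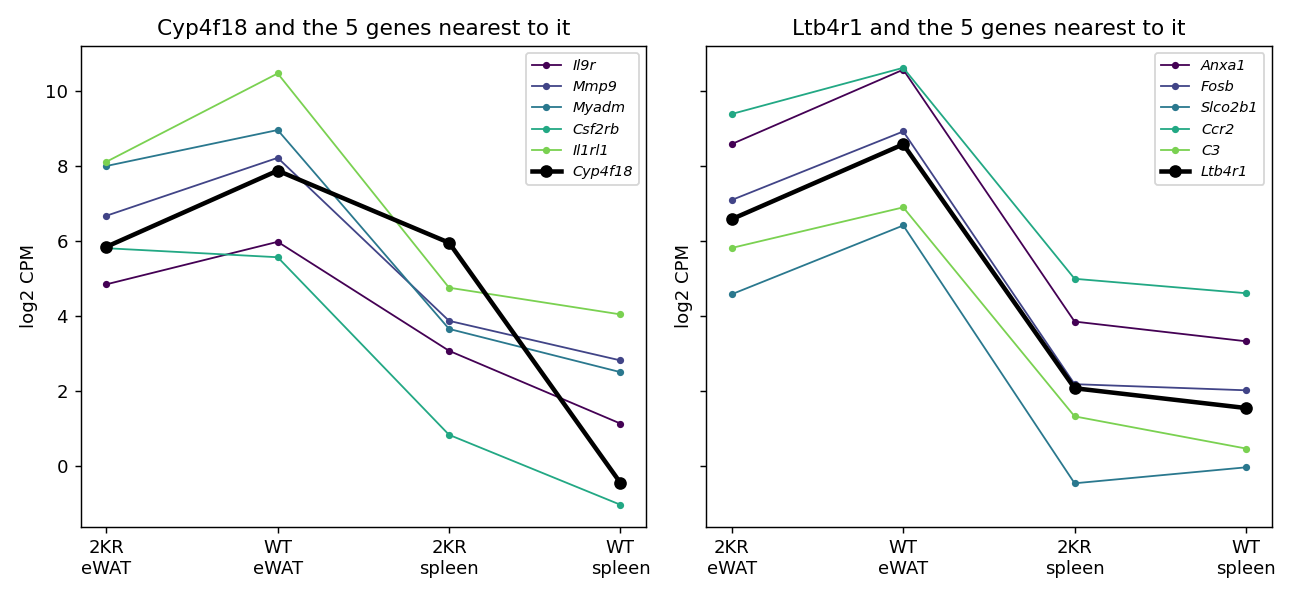
Log2 CPM in the 4 libraries for Cyp4f18 (left, black) and Ltb4r1 (right, black) with the 5 genes whose centred profiles lie nearest. The genes nearest to Ltb4r1 run parallel to it, whereas those nearest to Cyp4f18 lie further from it in spleen.

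Other genes of the pathway, 58 listed and 56 found in the count tables, were tested between tissues with the 2 eWAT libraries against the 2 spleen libraries. This list too was drawn up with earlier results of these data known. Its counts and p-values therefore describe these libraries and are not independent support. More of them rose than fell in eWAT. Of 44 that passed the expression filter, 22 rose, 7 fell and 15 did not pass, by edgeR's quasi-likelihood test with adjustment over all 16488 genes, against 33.7% higher and 23.2% lower over all genes. The median log2 fold change was 1.18 over the list and 0.11 over all genes tested. Of the 22 that rose, 14 had a mean under 5 CPM and 2 had 20 CPM or more. Of the 7 that fell, 6 had 20 CPM or more. The filter needed enough reads in only 2 libraries, so a gene scarce in spleen could pass on its fat libraries alone. Pla2g4e did so, with 48 reads in 2KR eWAT and 41 in WT eWAT against 1 in 2KR spleen and 3 in WT spleen. Alox12e and Dpep1 did so too. For such genes a rise was the only direction open to a call. Symbols with any read numbered 21775 in 2KR eWAT and 21271 in WT eWAT, against 18540 in 2KR spleen and 19463 in WT spleen. A share over genes of like level was not taken, so the excess that rose is not read as a trait of the pathway. With limma on FPKM 14 rose, without the 2KR spleen library 13 rose, and without the WT spleen library 4 fell. Each tissue had 1 library of each genotype, so any genotype difference counts as spread here, and a p-value speaks of the spread among these 4 libraries alone.

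Phospholipases A2, which release the fatty acid, gave 7 that rose and 2 that fell of 14. Those that fell were Pla2g16, at 85 CPM in 2KR eWAT and 108.5 CPM in WT eWAT against 145.9 CPM in 2KR spleen and 178.4 CPM in WT spleen (log2 fold change −0.74, SE 0.20, edgeR adjusted p = 0.00763), and Pla2g12a (−0.82, SE 0.24, edgeR adjusted p = 0.011). Without WT spleen both calls were lost, with edgeR adjusted p = 0.157 for Pla2g16 and 0.122 for Pla2g12a, and Pla2g12a was also lost with limma on FPKM (adjusted p = 0.0592). Among other lipoxygenases and cofactors 4 of 6 rose. They were Alox12e and Aloxe3, both weakly expressed, the 8-lipoxygenase gene Alox8 at 40.6 CPM in 2KR eWAT and 60.5 CPM in WT eWAT against 20.3 CPM in 2KR spleen and 23.3 CPM in WT spleen (log2 fold change 1.21, SE 0.23, edgeR adjusted p = 0.000959), and Cotl1, which encodes a 5-lipoxygenase binding protein (1.26, SE 0.24, edgeR adjusted p = 0.000984). Without 2KR spleen the calls of Cotl1 and Aloxe3 were lost, with edgeR adjusted p = 0.0545 for Cotl1 and 0.0522 for Aloxe3. The Aloxe3 log2 fold change was 2.70, against 1.88 without 2KR spleen and 4.15 without WT spleen, and that of Alox12e was 4.83, against 5.80 without 2KR spleen.

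Genes that conjugate, export or break down leukotrienes and related epoxides gave 7 that rose and 3 that fell of 15. Ephx1, the microsomal epoxide hydrolase gene, fell, with 109.9 CPM in 2KR eWAT and 72.1 CPM in WT eWAT against 474.8 CPM in 2KR spleen and 513 CPM in WT spleen (log2 fold change −2.44, SE 0.25, edgeR adjusted p = 5.37e-06). Mgst2, a glutathione transferase that can also make leukotriene C4, fell too (−1.49, SE 0.19, edgeR adjusted p = 4.71e-05), as did Ggt7 (−1.40, SE 0.28, edgeR adjusted p = 0.00123). The dipeptidase gene Dpep1, which acts on leukotriene D4, rose, with 13.3 CPM in 2KR eWAT and 27.7 CPM in WT eWAT against 0.196 CPM in 2KR spleen and 0.161 CPM in WT spleen (log2 fold change 6.75, SE 0.60, edgeR adjusted p = 1.45e-06), and its value was 6.03 without WT eWAT. Its relative Dpep2 rose too (log2 fold change 4.50, SE 0.57, edgeR adjusted p = 4.02e-05). The Dpep2 value was 5.98 without WT spleen, 3.64 without 2KR spleen and 3.73 without 2KR eWAT.

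Of the other receptors 3 were tested. Cysltr2, the second cysteinyl leukotriene receptor gene, had 24.8 CPM in 2KR eWAT and 23.5 CPM in WT eWAT against 12.7 CPM in 2KR spleen and 16.3 CPM in WT spleen, and it rose (log2 fold change 0.74, SE 0.26, edgeR adjusted p = 0.0252). The Cysltr2 call was lost with DESeq2 (adjusted p = 0.123), without WT spleen (edgeR adjusted p = 0.0764) and without 2KR spleen (0.321). Gpr17 rose on 63 reads in 2KR eWAT and 28 in WT eWAT against 0 in 2KR spleen and 9 in WT spleen (3.70, SE 1.01, edgeR adjusted p = 0.00737). Its fitted value was 2.56 without 2KR spleen and 2.82 without 2KR eWAT (edgeR adjusted p = 0.0492). Without WT spleen it was 8.74, a value set by the prior count, since the spleen reads are then 0. Gpr18, which encodes a G protein-coupled receptor, fell (−2.70, SE 0.30, edgeR adjusted p = 1.19e-05), with −3.45 without 2KR eWAT. Ltb4r2, the low-affinity LTB4 receptor gene, had 4 reads in 2KR eWAT, 1 in WT eWAT, 0 in 2KR spleen and 2 in WT spleen.

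Of 6 other CYP4F genes tested 2 rose and 1 fell. Cyp4f13 had 21.8 CPM in 2KR eWAT, 20.7 CPM in WT eWAT, 31.3 CPM in 2KR spleen and 36 CPM in WT spleen, and it fell in eWAT (log2 fold change −0.66, SE 0.22, edgeR adjusted p = 0.0208), a call that was lost without either spleen library, with edgeR adjusted p = 0.184 without WT spleen and 0.0744 without 2KR spleen. It was also lost with limma on FPKM (adjusted p = 0.0557). Cyp4f16 had 15.9 CPM in 2KR eWAT, 11.8 CPM in WT eWAT, 8.71 CPM in 2KR spleen and 10.5 CPM in WT spleen, and did not pass the test. Cyp4f14 and Cyp4f40 rose in eWAT on at most 28 reads in a library, and the Cyp4f40 call was lost without any 1 library (edgeR adjusted p = 0.148 to 0.228) and with genotype as a term (0.102). For Cyp4f14 the log2 fold change was lower without 2KR spleen, at 2.88, and higher without WT spleen, where the spleen reads are 0. Cyp4f17, Cyp4f39 and Cyp4f15 had at most 77 reads in a library.

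**Figure D5:**
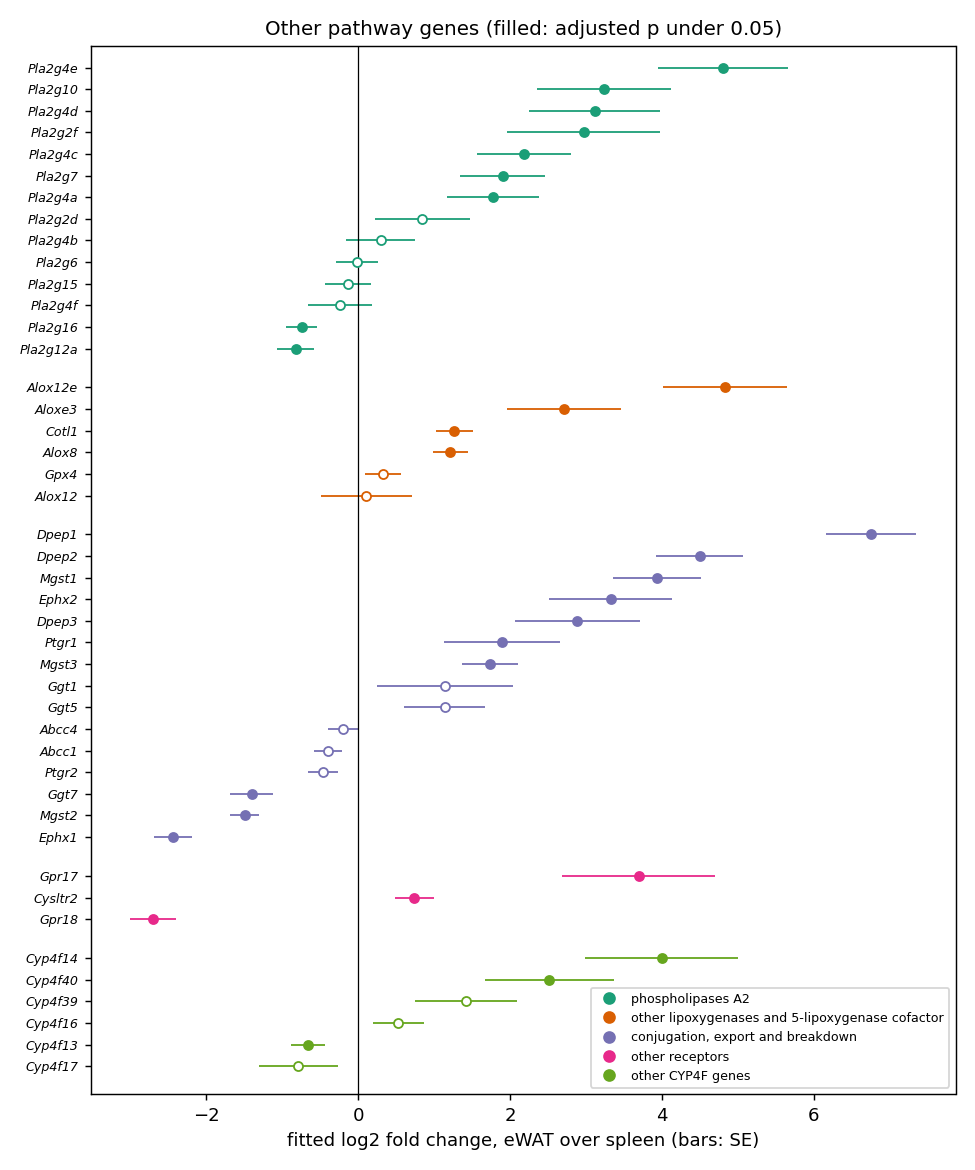
Fitted log2 fold change of eWAT over spleen with its SE for the 44 other pathway genes tested, grouped by role (filled points, edgeR adjusted p under 0.05). Dpep1 lies furthest to the right at 6.75 and Gpr18 furthest to the left at −2.70.

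A 2KR effect common to both tissues was tested over the same list, and 0 of the 44 genes were called. By edgeR's quasi-likelihood test 1 of them had an unadjusted p under 0.05, and DESeq2 also called 0. Over all 16488 genes 0 were higher and 11 lower in 2KR by edgeR, or 0.0667% lower, with 777 genes at an unadjusted p under 0.05, of which 212 were higher. DESeq2 called 0 higher as well, and edgeR with no filter on low counts called 9 higher. The fitted common log2 value of Cyp4f18 was 1.05, a shared coefficient fitted to 2 tissues whose ratios had opposite signs.

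Within eWAT, 23 other pathway genes had 100 reads or more in 1 library. Dpep2 had the largest 2KR over WT log2 ratio of these in size, 1.16 (0.91 to 1.44), at 36.6 CPM in 2KR eWAT and 16.2 CPM in WT eWAT. Next were Gpr18 at 1.13 (0.91 to 1.38) and Dpep1 at −1.05 (−1.37 to −0.75). They were followed by Pla2g4f at 0.95 (0.53 to 1.42), Pla2g4b at −0.88 (−1.41 to −0.40) and Cotl1 at 0.71 (0.64 to 0.79). None of these 6 reached the size of the Cyp4f18 or Ltb4r1 ratio in eWAT. Of the 31 listed genes at 5 CPM or more, 4 were at 1 or higher and 1 at −1 or lower, against 5.35% of all genes at 1 or higher and 2.33% at −1 or lower.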

How the data were processed

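Per the deposited readme, which describes the authors' sequencing facility in general terms, poly-A TruSeq libraries were sequenced to 100 bp, converted with bcl2fastq 1.8.4 and mapped with TopHat 2.1.0 to the mouse build mm9, with 4 mismatches and 10 multiple hits as limits. The submitters' processing notes also name mm8. The deposited counts are whole reads per gene symbol with no scaling, and no source used here gives the counting tool or its use of strand. Cufflinks 2.0.2 gave the deposited FPKM per gene and transcript, per the readme, and the deposited transcript tables add coverage, an unscaled signal.

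Counts were scaled to CPM with TMM factors. Log2 ratios used a prior count of 2 and exact conditional binomial intervals of 95%, which cover counting error only. eWAT and spleen libraries were compared with edgeR 4.0.16 (R 4.3.3), quasi-likelihood test, Benjamini-Hochberg adjustment over 16488 genes. The effect of 2KR common to both tissues had tissue as a term and 1 residual degree of freedom. The scripts were tested on simulated data. Alternatives were DESeq2 1.42.0, limma 3.58.1 on log2(FPKM + 1), other scalings, no filter, genotype as a term in the tissue comparison and leaving out each library.

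The members, lists and tests were chosen with earlier results of these data known. Up to 8 other pathway genes were named by tissue effect at a mean of 20 CPM or more, up to 6 by eWAT genotype ratio at 100 reads or more, and the other CYP4F genes by level. Alox12e, Aloxe3, Ggt7, Cysltr2 and Gpr17 were named after their values were seen, since they fall in counts of 5 or fewer, as was Ltb4r2, a receptor for LTB4. A gene that the rule on like profiles would name is not reported here.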

Additional observations from a re-analysis of the deposited data

Results flagged for a closer look

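Cyp4f18 had a 2KR over WT log2 ratio of opposite sign in the 2 tissues, −2.03 in eWAT and 6.12 in spleen, with counting intervals that both exclude 0, and the difference (eWAT minus spleen) was −8.16. It is listed because the single library pair of each tissue moved the opposite way, and the difference was not tested. Alox5, Alox5ap and Ltb4r1 also had ratios of opposite sign, each with an interval that includes 0 in at least 1 tissue. Groups of 1 library cannot be screened for a sample far from the others.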

How the results depend on the processing

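No analysis paired by replicate number was possible, because each group held 1 library and the labels give no such numbers. With genotype as a term, which sets eWAT against spleen within each genotype, 4487 genes were higher and 4007 lower in eWAT, and 18 other pathway genes were higher and 8 lower. Of the other pathway genes named, Cyp4f40 alone lost its call there. The eWAT ratio of Cyp4f18 was −1.78 with total counts, −1.81 with FPKM and −1.63 scaled to 10 T cell and Treg genes, a scaling chosen after seeing the data. Its eWAT over spleen ratio within 2KR, −0.11, became 0.17, 0.21 and 0.38 under the same settings, so its direction depends on the scaling. Scaling shifts all genes alike: total counts by 0.26 for the eWAT genotype ratio and 0.28 for the tissue ratio within 2KR, and the T cell genes by 0.40 and 0.49 for the same ratios, 0.17 for the spleen genotype ratio and 0.26 for the tissue ratio within WT. The Cyp4f18 ratio in spleen ran from 6.11 to 6.34, and that between tissues within WT from 8.03 to 8.26. Of 140 values of the other 7 genes under these alternatives, 120 stayed within their counting interval, 20 moved and 0 called values turned sign. The tissue comparison called 2727 genes higher in FPKM with limma, and 14 other pathway genes. Leaving out 1 library gave 3403 to 5491 genes higher (lowest without 2KR eWAT) and 1909 to 5278 lower (1909 without WT spleen, 2178 without 2KR spleen), and 13 to 21 other pathway genes higher and 4 to 9 lower, with the lone library of a tissue assumed to vary like the other tissue's. The common 2KR effect called 11 genes, 2 with DESeq2, 51 with no filter on low counts and 0 by edgeR with no tissue term, where 5 had an unadjusted p under 0.05. The cause was not tested. Depth limits Ltc4s and Alox15, with at most 16 reads in a library, and every spleen value of Alox5 and Alox5ap.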
